A study of Homo sapiens with 12 samples.

Results

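The diacylglycerol kinases examined here are 10 human genes, DGKA, DGKB, DGKD, DGKE, DGKG, DGKH, DGKI, DGKK, DGKQ and DGKZ, out of 57169 genes in the count table. They were taken by gene symbol. DGKK was chosen by its lower level in RING1B knock-down tumours, so its values are given as a description with no test, and the other 9 genes were added as its family. RNA was sequenced from 6 tumours labelled Knock-down for RING1B and from 6 tumours labelled wild-type, all grown from SK-ES1 as xenografts in a host that the labels do not name; SK-ES1 is an established human line from an Ewing sarcoma. RING1B, encoded by RNF2, is a ubiquitin ligase of Polycomb repressive complex 1, and the fusion transcription factor EWSR1-FLI1 drives Ewing sarcoma. The labels name neither a silencing construct nor a control construct. Nothing in them tells if the libraries of a group came from different animals. Of 8 numbers in the library titles 4 stand on 2 libraries of the same group, and the main test took all 6 libraries of a group as separate. The p-values therefore cover only the spread among these samples, which may be technical.

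Diacylglycerol kinases phosphorylate diacylglycerol, a lipid released when phospholipase C cleaves a membrane phosphoinositide, to phosphatidic acid. The reaction ends signalling through proteins whose C1 domain binds diacylglycerol, such as protein kinase C and the RASGRP activators of RAS, and it supplies phosphatidic acid, which is itself a signal and a precursor from which the cell rebuilds phosphoinositides. All members carry a catalytic domain and C1 domains, and they are grouped by the rest of the protein. DGKA, DGKB and DGKG have calcium-binding EF hands, DGKD, DGKH and DGKK have a pleckstrin homology domain, DGKE is a short enzyme with a preference for arachidonate-containing diacylglycerol, DGKZ and DGKI have ankyrin repeats, and DGKQ stands alone with an extra C1 domain.

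DGKK lies on the minus strand at chrX:50365409-50470738 (hg38), with 28 merged exons of 7407 bases in all, and no other annotated gene overlaps it. DGKE lies on the plus strand at chr17:56834099-56869567 and has 10933 exonic bases. The promoter windows of these 2 genes, the members with the largest fold changes among those tested, are shown because GGAA is the core of the motif that FLI1 and other ETS factors recognise. Each window runs from 250 bases before to 50 bases after the RefSeq start (GRCh38.p14), in the 5′ to 3′ direction of the gene, with GGAA or its reverse complement TTCC in capitals. The DGKK window is chrX:50470776-50471075 on the minus strand and the DGKE window is chr17:56833901-56834200 on the plus strand. The RefSeq start of DGKK lies upstream of the gene span given above, so its window holds no base of that span.
DGKK: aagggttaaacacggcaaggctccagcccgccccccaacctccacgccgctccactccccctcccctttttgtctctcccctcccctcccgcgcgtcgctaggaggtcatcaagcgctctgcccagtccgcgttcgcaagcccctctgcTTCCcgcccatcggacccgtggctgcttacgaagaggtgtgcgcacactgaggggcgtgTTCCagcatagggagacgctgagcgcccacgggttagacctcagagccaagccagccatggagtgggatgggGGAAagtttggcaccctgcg
DGKE: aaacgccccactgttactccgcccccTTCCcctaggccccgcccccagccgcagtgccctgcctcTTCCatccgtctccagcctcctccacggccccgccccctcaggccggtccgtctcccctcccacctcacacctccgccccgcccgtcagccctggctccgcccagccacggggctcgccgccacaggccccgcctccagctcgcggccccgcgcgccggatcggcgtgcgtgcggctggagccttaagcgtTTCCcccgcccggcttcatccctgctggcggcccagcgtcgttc
Both windows held 3 of these cores, none directly following another in the same orientation. Sequence outside the promoter windows was not searched, so sites elsewhere were not examined. At least 1 core was present in 95.5% of 35116 promoter windows of the same length and at least 3 in 66.0%, with a median of 3, and 3.67% held cores that directly follow each other. The DGKK window had 22 CG dinucleotides and 65.3% G and C, and 37.7% of windows had as many CG or more. The DGKE window had 33 CG dinucleotides and 75.3% G and C, and 17.2% of windows had as many CG or more. Windows were found for 9 of the 10 members, DGKQ being the exception, with 23 starts in all.

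Each library held 23859184 to 26678325 counts. Levels are given in CPM, counts scaled to a fixed library total, and 3 counts equal 0.109 to 0.128 CPM in knock-down and 0.111 to 0.126 CPM in control tumours. Across 16519 genes tested, edgeR called 29 higher and 20 lower in knock-down tumours at a Benjamini-Hochberg adjusted p below 0.05, or 0.176% and 0.121% of genes and 0.297% in either direction. RNF2 averaged 17.7 ± 4.56 CPM in knock-down tumours and 47.6 ± 8.44 CPM in control tumours (SD, n = 6 each), with no overlap between the groups (edgeR adjusted p = 0.00347 for a log2 fold change of −1.43, SE 0.174). Knock-down 4, knock-down 5 and control 6 correlated least with the other libraries, with median Spearman values of 0.964, 0.969 and 0.972. Mitochondrially encoded genes took 10.01% of counts in knock-down 5, 8.42% in knock-down 4 and 5.55 to 7.64% in the other knock-down tumours, against 14.4% in control 6 and 4.65 to 7.08% in the other controls. Of 8 Ewing sarcoma markers 7 had counts in these libraries, with summed levels of 1899 to 2165 CPM in knock-down and 1795 to 2009 CPM in control tumours. CD99, a defining surface marker of the disease, had 0 counts in all 12 libraries; it is annotated at the same place on both sex chromosomes. Knock-down 4 had the highest summed levels of the markers listed for leukocytes, 40.1 CPM, and for fibroblasts and pericytes, 1602 CPM. The lowest knock-down tumours had 9.21 and 403 CPM. Control tumours ran from 8.90 to 31.8 CPM for leukocytes and from 565 to 1578 CPM for fibroblasts and pericytes, close to knock-down 4 for the latter.

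DGKK, an X-linked gene whose variants are associated with hypospadias in humans and whose mRNA is bound by the fragile X protein FMRP in mouse neurons, had 2.84-fold less RNA in knock-down tumours than in control tumours. Its level in knock-down tumours was 7.83 CPM at the lowest, 16.1 CPM at the median and 20.7 CPM at the highest, against 30.0, 43.1 and 51.5 CPM in control tumours. The highest knock-down tumour, knock-down 6, thus stood under the lowest control tumour, which was control 6. Means were 14.7 ± 4.79 CPM in knock-down tumours and 41.8 ± 9.05 CPM in control tumours (SD, n = 6 each), and the log2 fold change was −1.51 (SE 0.217). These values rest on 2214 counts in knock-down and 6442 counts in control libraries. This contrast selected the gene, so the 0.575% of tested genes that were lower without overlap is given only as background. The log2 fold change was between −1.64 and −1.38 with any 1 library left out. In bulk tumours, fewer cells that express a gene and less RNA per cell cannot be told apart.

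**Figure D1:**
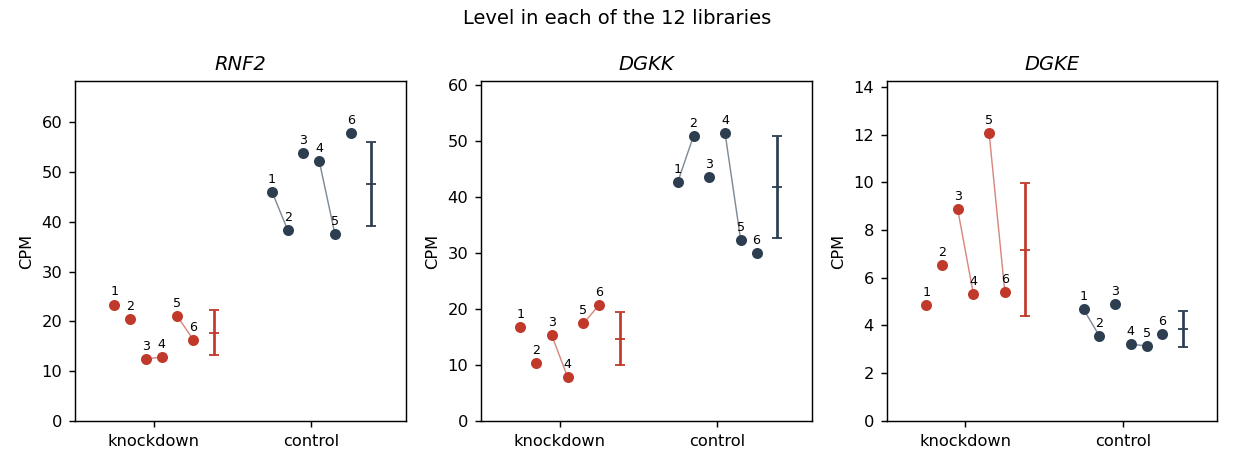
CPM of RNF2, DGKK and DGKE in each library, with knock-down tumours left of control tumours. Numbers are replicate numbers, thin lines join libraries that share a number in their titles, and bars give the mean ± SD. DGKK lies between 7.83 and 20.7 CPM in knock-down and between 30.0 and 51.5 CPM in control tumours, and DGKE overlaps only at 4.87 CPM in knock-down 1 and 4.90 CPM in control 3.

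Relative to its level, DGKK varied more in knock-down tumours, with a highest level 2.64 times the lowest in knock-down and 1.71 times in control. In CPM its SD was smaller in knock-down tumours, 4.79 against 9.05. The wider ratio was not particular to DGKK, as DGKD had 2.59 and 1.90 times and DGKG 2.52 and 2.12 times. Of the tested members only DGKQ went the other way, with 2.19 and 2.30 times. Knock-down 4 held the lowest level, 7.83 CPM, and knock-down 2 the next, 10.3 CPM, while the other 4 knock-down tumours were between 15.3 and 20.7 CPM. The residual level of RNF2 was set beside DGKK within each group, where the contrast that chose the gene does not enter. In knock-down tumours Pearson's r was 0.34 and Spearman's rho 0.37 (n = 6, exact permutation p = 0.497 for each, adjusted p = 0.819 over 4 relations). Leaving out knock-down 3 and knock-down 4, the 2 tumours farthest from the RNF2 median, turned r to −0.37 (exact permutation p = 0.75). In control tumours r was −0.11 (exact permutation p = 0.819) and rho −0.14 (exact permutation p = 0.803), both with an adjusted p of 0.819, and without control 2 and control 5 r was −0.55 (exact permutation p = 0.333). No relation between the 2 genes within a group was detectable with 6 tumours.

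Per length of exon, DGKK was the fifth kinase in knock-down tumours and the second in control tumours. Levels of different genes are compared here as CPM per kilobase of exon (CPM per kb). DGKK had 1.99 ± 0.647 CPM per kb in knock-down and 5.64 ± 1.22 CPM per kb in control tumours (SD, n = 6 each), at percentiles 37.5 and 59.1 of all tested genes. DGKD was the most abundant in both groups, with 12.8 ± 4.87 CPM per kb in knock-down and 14.4 ± 2.98 CPM per kb in control tumours (SD, n = 6 each).

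The order in knock-down tumours was DGKD, DGKZ, DGKQ, DGKG, DGKK, DGKA, DGKE, DGKH, DGKI and DGKB. DGKZ had 5.06, DGKQ 3.83, DGKG 1.995 and DGKA 1.56 CPM per kb there. DGKE had 0.656 and DGKH 0.476 CPM per kb. Libraries of neighbours in this order overlapped except between DGKD and DGKZ, DGKA and DGKE, and DGKH and DGKI. The order in control tumours was DGKD, DGKK, DGKZ, DGKQ, DGKG, DGKA, DGKH, DGKE, DGKI and DGKB. DGKK at 5.64 and DGKZ at 5.48 CPM per kb overlapped there, and without control 2 or without control 4 DGKK came after DGKZ. The only neighbours without overlap in control tumours were DGKD and DGKK, DGKA and DGKH, DGKE and DGKI, and DGKI and DGKB.

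**Figure D2:**
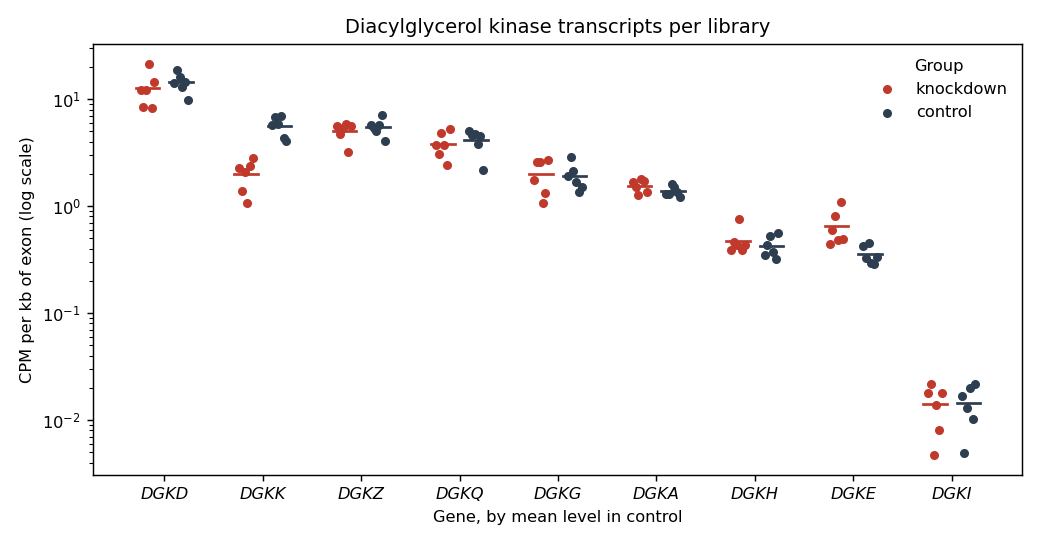
CPM per kilobase of exon, on a log axis, for 9 kinases in each library, with knock-down tumours left of control tumours and lines at the means. DGKB is left out because most libraries had no count. DGKD stands highest in both groups at 12.8 and 14.4 CPM per kb, and DGKK at 1.99 CPM per kb in knock-down and 5.64 CPM per kb in control tumours.

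The summed level of the 10 kinases was 28.4 ± 5.89 CPM per kb in knock-down and 33.7 ± 5.57 CPM per kb in control tumours (SD, n = 6 each). DGKK made up 7.30% ± 2.77 of it in knock-down tumours, with single tumours between 2.92 and 11.3%, and 16.8% ± 2.57 in control tumours, between 12.9 and 21.0%. Without DGKK the sums were 26.4 ± 6.02 and 28.1 ± 4.77 CPM per kb, a difference smaller than the SD within either group. DGKD made up 44.1% ± 7.85 of the sum in knock-down tumours and 42.4% ± 2.55 in control tumours, and its highest share, 59.4%, was in knock-down 4, where DGKK had its lowest.

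**Figure D3:**
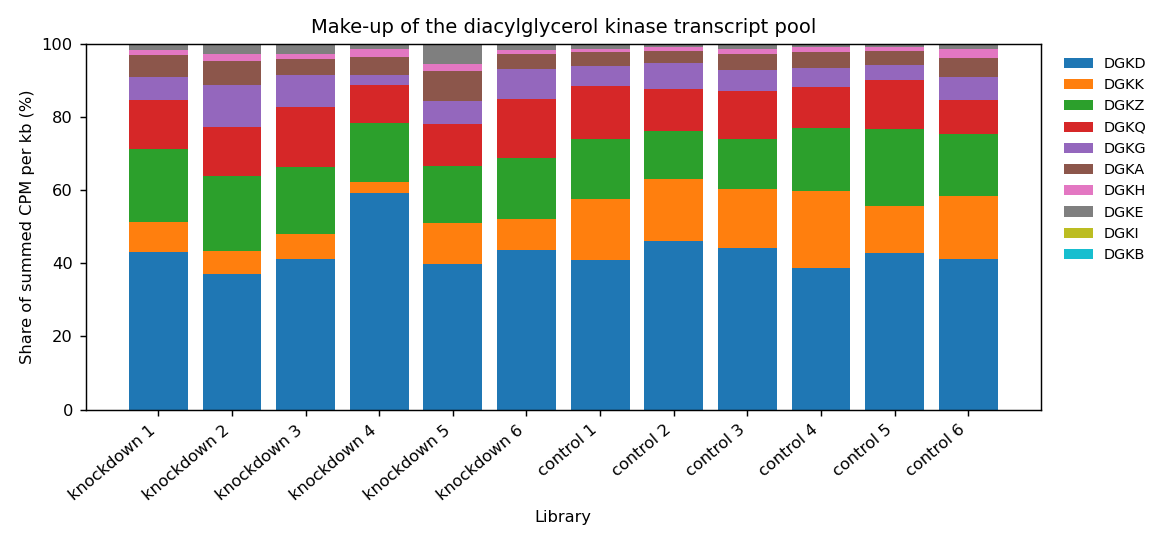
Share of each kinase, in percent, in the summed CPM per kilobase of the 10 genes, as a stacked bar for each library with knock-down tumours left of control tumours. DGKK takes 2.92 to 11.3% in knock-down and 12.9 to 21.0% in control tumours, and DGKD is the largest share in all 12 libraries.

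Of the other 9 members 7 had enough counts to be tested, and none of them was called by edgeR. DGKE alone had an unadjusted p below 0.05, a limit that 12.7% of all tested genes passed. DESeq2 called 1 of the 7, DGKE, while it called 2.35% of all genes it tested, and limma-voom called 0. The 7 log2 fold changes were positive in 4 and negative in 3, with a median of 0.06 against 0.01 over all tested genes.

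DGKE, the kinase of the phosphoinositide cycle that is known for thrombotic kidney disease when lost in humans, stood above every control tumour in 5 of 6 knock-down tumours. Its level in knock-down tumours was 4.87 CPM at the lowest, 5.96 CPM at the median and 12.1 CPM at the highest, against 3.14, 3.604 and 4.90 CPM in control tumours. The groups met only where knock-down 1, at 4.87 CPM, stood under control 3, at 4.90 CPM. Means were 7.18 ± 2.80 CPM in knock-down and 3.86 ± 0.750 CPM in control tumours (SD, n = 6 each), a log2 fold change of 0.89 with a 95% interval of 0.40 to 1.39. The edgeR adjusted p was 0.143, so the gene was not called, and over all alternatives the adjusted p ran from 0.0204, with DESeq2, to 0.323. The highest level was in knock-down 5, the knock-down tumour with the highest mitochondrial share, and without that library the log2 fold change was 0.68. The part of that share in the result was not tested. With the title letter as a covariate the log2 fold change was 0.76. DGKE shares 80 exonic bases, 0.732% of its length, with TRIM25 on the opposite strand, and TRIM25 had a log2 fold change of −0.05.

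Of the kinases with a pleckstrin homology domain, neither DGKD nor DGKH was called by edgeR, and for DGKK no test is given. DGKD, known to sustain growth factor receptor signalling in cultured cells, had 81.3 CPM at the lowest, 118 CPM at the median and 210 CPM at the highest knock-down tumour, against 95.8, 141 and 182 CPM in control tumours. The 210 CPM belonged to knock-down 4, and the groups overlapped widely. The log2 fold change was −0.16 with an SE of 0.214 (95% interval −0.62 to 0.29; edgeR adjusted p = 0.792), and −0.37 without knock-down 4. DGKH, a close relative of DGKD, had 9.34 ± 2.69 CPM in knock-down and 8.36 ± 1.91 CPM in control tumours (SD, n = 6 each). Its log2 fold change was 0.16 with an SE of 0.195 (95% interval −0.26 to 0.58; edgeR adjusted p = 0.772). Knock-down 4 stood apart at 14.7 CPM with no other knock-down tumour above 9.05 CPM, and without it the log2 fold change was −0.01. Knock-down 4 thus held the lowest DGKK, the highest DGKD and DGKH and the highest sums of the leukocyte list and of the fibroblast and pericyte list. The latter sum was mostly collagen. COL1A1, COL1A2 and COL3A1 reached 658, 331 and 446 CPM in knock-down tumours, and PDGFRA at most 0.852 CPM. Some leukocyte markers, such as PTPRC at 2.23 CPM, were highest in a control tumour. The counts do not tell which cells these transcripts came from, and the part of such cells in the kinase levels was not tested. DGKH shares 292 exonic bases with the pseudogene FHP1.

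**Figure D4:**
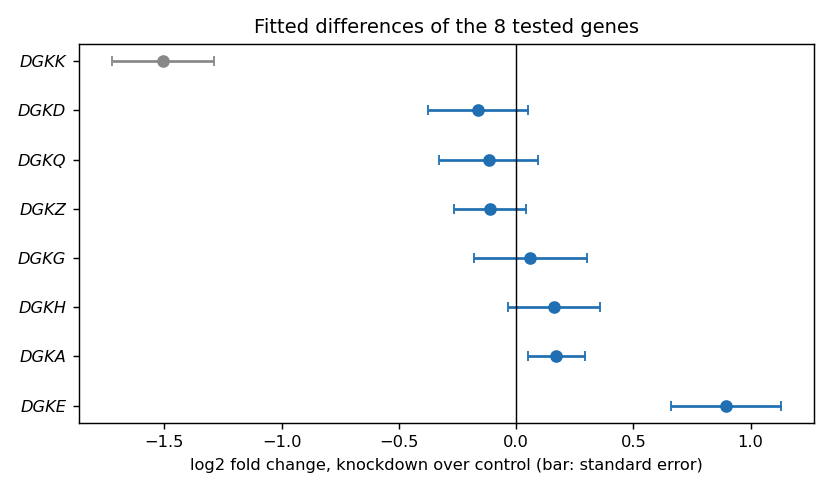
Log2 fold change (knock-down over control) with its standard error for the 8 kinases that could be tested, with DGKK in grey because the same contrast chose it. DGKK is at −1.51 and DGKE at 0.89, and the other 6 lie between −0.16 and 0.17.

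None of the calcium-binding kinases passed the test. DGKA, which restrains signalling in T cells and is expressed in several tumours, had 12.9 to 18.4 CPM in knock-down tumours with a median of 16.3 CPM, and 12.5 to 16.5 CPM in control tumours with a median of 13.5 CPM. It was the steadiest member, with a highest level 1.42 times the lowest in knock-down and 1.33 times in control tumours. Its log2 fold change was 0.17 with an SE of 0.122 (95% interval −0.09 to 0.43; edgeR adjusted p = 0.586). It shares 353 exonic bases, 3.46% of its length, with PYM1 on the opposite strand. DGKG, best known from neurons, had 11.7 to 29.4 CPM in knock-down and 14.996 to 31.8 CPM in control tumours, with medians of 23.6 and 19.7 CPM. The log2 fold change was 0.06 with an SE of 0.239 (95% interval −0.45 to 0.57; edgeR adjusted p = 0.945), and its sign turned when any of 4 single libraries was left out. DGKG shares 164 exonic bases, 1.49% of its length, with ETV5 on the same strand, and ETV5 had a log2 fold change of −0.17. DGKB, a brain kinase, had 4 counts in knock-down 5, 1 count in knock-down 4 and 0 in the other 10 libraries. A count of 0 allows up to 0.111 to 0.126 CPM in the control libraries, so no difference was detectable at this depth.

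DGKZ, which in T cells limits RAS activation, had 34.6 to 63.4 CPM in knock-down tumours with a median of 59.1 CPM, and 43.5 to 75.9 CPM in control tumours with a median of 59.7 CPM. Its log2 fold change was −0.11 with an SE of 0.153 (95% interval −0.44 to 0.21; edgeR adjusted p = 0.801). Reads could be shared with its processed pseudogene DGKZP1, which had 0.158 to 0.681 CPM in knock-down and 0.190 to 0.796 CPM in control tumours. DGKI, the other kinase with ankyrin repeats, had 32 counts in all knock-down and 34 in all control libraries, or 0.217 ± 0.101 and 0.223 ± 0.0977 CPM (SD, n = 6 each), and was not tested. DGKQ, which is found partly in the nucleus, had 11.99 to 26.2 CPM in knock-down and 10.9 to 25.1 CPM in control tumours. Its log2 fold change was −0.12 with an SE of 0.212 (95% interval −0.57 to 0.33; edgeR adjusted p = 0.861).

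Some members moved together between tumours of the same group. After the group means were subtracted, DGKQ and DGKZ had a Pearson r of 0.75 over the 12 libraries, DGKD and DGKQ 0.66, and DGKD and DGKZ 0.65. These 3 genes were lowest in knock-down 5 among knock-down tumours, at 81.3 CPM for DGKD, 11.99 CPM for DGKQ and 34.6 CPM for DGKZ. They were also lowest in control 6 among controls, at 95.8, 10.9 and 43.5 CPM. Both libraries held the highest mitochondrial share of their group, and the part of that share in the correlations was not tested. DGKE and DGKZ had r = −0.67 and DGKH and DGKK r = −0.59, while DGKG and DGKK had r = 0.52. The values describe these libraries and share their depth and scaling.

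The 5 genes whose levels followed DGKK most closely within groups, out of 14231 genes averaging 1 CPM or more, were OR10G2 (r = 0.93), ZKSCAN4 (0.92), AL662907.1 (0.91), AP000873.2 (0.88) and AL928654.4 (0.88), all over 12 libraries. An absolute r of 0.797 was exceeded by 1% of the genes compared. Between the groups their edgeR adjusted p-values ran from 0.167 to 0.968, and with Spearman's rho the 5 closest genes were all different. Around DGKK, 43 genes were annotated within 1 Mb, 9 were tested and none was called by edgeR or by DESeq2, with 1 at an unadjusted p below 0.05. Over all tested genes edgeR called 0.297%, DESeq2 called 2.35% and 12.7% had an unadjusted p below 0.05. The log2 fold changes of the 9 neighbours ran from −0.91 to 0.10, with 7 negative and 2 positive, where 7862 of all 16519 tested genes were negative. CCNB3, a meiotic cyclin and the nearest neighbour tested at 13.5 kb, had 3.92 ± 1.30 CPM in knock-down and 3.76 ± 0.862 CPM in control tumours (SD, n = 6 each; log2 fold change 0.06, edgeR adjusted p = 0.944). SHROOM4, an actin-binding protein gene at 120.9 kb, had 17.6 ± 5.64 CPM in knock-down and 24.5 ± 8.39 CPM in control tumours (SD, n = 6 each; log2 fold change −0.48, edgeR adjusted p = 0.448).

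The rest of the pathway was read from 6 lists with 85 entries, of which 72 were tested. edgeR called 1 gene higher, DGAT2, and none lower, where 0.297% of all tested genes were called. DGAT2 passed the low-count filter through the knock-down group, where it was high. At an unadjusted p below 0.05 there were 8 of 72, a share no higher than the 12.7% of all tested genes. DESeq2 called 3 (DGAT2, PRKD1 and LPIN1), where it called 2.35% of all genes it tested, and limma-voom called 0. Phospholipases C, which make diacylglycerol, had negative log2 fold changes in 9 of 10 tested genes, some near 0 such as PLCG1 at −0.003. Over all tested genes 7862 of 16519 were negative. The list median was −0.13, against 0.01 over all tested genes. None was called by edgeR or DESeq2, and 2 had an unadjusted p below 0.05. The lowest unadjusted p belonged to PLCB1, with 18.1 ± 3.401 CPM in knock-down and 24.8 ± 3.48 CPM in control tumours (SD, n = 6 each; log2 fold change −0.45, edgeR adjusted p = 0.208). PLCH1 had a log2 fold change of −0.49 (edgeR adjusted p = 0.236), PLCD4 of −0.36 and PLCD3 of −0.19.

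Of 15 tested genes for proteins with a C1 domain none was called by edgeR, 2 had an unadjusted p below 0.05 and DESeq2 called 1. Over all tested genes these shares were 0.297%, 12.7% and 2.35%, in the same order. The median log2 fold change of the 15 was 0.01. PRKD1, the protein kinase D that diacylglycerol brings to the Golgi, was the only one of the 72 list genes whose groups did not overlap, or 1 of 72, where 1.22% of all tested genes had no overlap in either direction. It had 12.4 to 17.2 CPM in knock-down and 17.8 to 27.4 CPM in control tumours, with means of 15.1 ± 2.04 and 21.8 ± 3.13 CPM (SD, n = 6 each). The edgeR adjusted p was 0.0997 for its log2 fold change of −0.53 (SE 0.127), and DESeq2 gave an adjusted p of 0.00611. RASGRP2, an activator of RAP GTPases, had a log2 fold change of 0.91 (edgeR adjusted p = 0.357) at 1.40 ± 0.984 CPM in knock-down and 0.739 ± 0.263 CPM in control tumours (SD, n = 6 each). The protein kinase C gene PRKCD had a log2 fold change of −0.33 and PRKD3 of −0.23.

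Of 17 tested genes on other routes to and from phosphatidic acid none was called by edgeR, 2 had an unadjusted p below 0.05 and DESeq2 called 1. The shares over all tested genes were 0.297% for edgeR calls, 12.7% for an unadjusted p below 0.05 and 2.35% for DESeq2 calls. The median log2 fold change of the 17 was −0.01. LPIN1, a phosphatase that turns phosphatidic acid into diacylglycerol, had 25.8 ± 5.31 CPM in knock-down and 17.1 ± 2.59 CPM in control tumours (SD, n = 6 each; log2 fold change 0.59, edgeR adjusted p = 0.124). Phospholipase D, which makes phosphatidic acid from phosphatidylcholine, was represented by PLD1 with a log2 fold change of −0.35 (edgeR adjusted p = 0.358). PLPP1 had 0.23 and GPAM −0.18 on the same scale. Of 15 tested genes of the phosphoinositide cycle none was called and none had an unadjusted p below 0.05 by edgeR, and DESeq2 called none. CDIPT, which makes phosphatidylinositol, had a log2 fold change of 0.23, PI4K2B of 0.41, PIP5K1C of 0.29 and PITPNM3 of −0.87 (edgeR adjusted p = 0.411, 0.441, 0.454 and 0.424).

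Another list, with 11 tested genes, covered diacylglycerol use in storage or phospholipid synthesis, lipases such as MGLL, and SGMS1, which makes sphingomyelin. In this list edgeR called 1 gene, where it called 0.297% of all tested genes, and the median log2 fold change was −0.00. An unadjusted p below 0.05 was seen for 2 of the 11, against 12.7% of all tested genes. DGAT2, which acylates diacylglycerol to triacylglycerol, had 0.762 to 6.73 CPM in knock-down and 0.190 to 0.837 CPM in control tumours, with means of 3.52 ± 2.46 and 0.423 ± 0.254 CPM (SD, n = 6 each). It rose by 3.05 on the log2 scale (SE 0.536, edgeR adjusted p = 0.0246), though knock-down 2, at 0.762 CPM, lay within the control range. Counts were only 5 to 20 in control libraries and 18 to 167 in knock-down libraries. DGAT2 thus passed the low-count filter through the knock-down group, where it was high. With a filter of at least 1 CPM in 6 libraries DGAT2 was not tested. The call was lost in 11 of 24 alternatives, 7 of them leaving out control 1, 2, 3, 4 or 5 or knock-down 1 or 3. Summed adipocyte markers were 1.09 to 2.94 CPM in knock-down and 0.891 to 2.74 CPM in control tumours, highest in knock-down 4 as DGAT2 was, and their part in the result was not tested. The sister enzyme DGAT1 had a log2 fold change of 0.38 (edgeR adjusted p = 0.381), CHPT1 of 0.25 and SGMS1 of −0.18. Among 4 related lipid kinases the log2 fold change was 0.19 for CERK, −0.27 for SPHK2, −0.13 for SPHK1 and 0.02 for AGK, whose sign turned in 6 alternatives, and the edgeR adjusted p-values ran from 0.528 to 0.961. None was called by edgeR or DESeq2 or had an unadjusted p below 0.05.

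**Figure D5:**
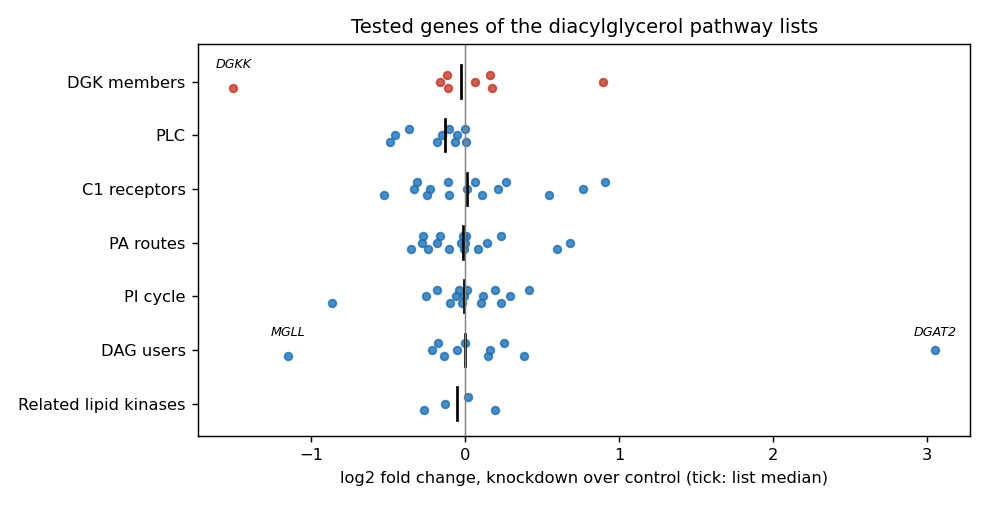
Log2 fold change (knock-down over control) of the tested genes in 6 pathway lists and of the kinases, 1 point per gene, with a tick at the median of each list. DGKK at −1.51 and DGAT2 at 3.05 are labelled, and MGLL at −1.15 was labelled after its value was seen; the list medians lie between −0.13 and 0.01.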

How the data were processed

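The authors deposited 1 table of raw read counts per gene for 6 RING1B knock-down and 6 control SK-ES1 xenograft tumours, and it was used as deposited. Per the labels' protocols, an RNeasy extraction was followed by the TruSeq stranded mRNA preparation, a method that enriches polyadenylated transcripts. The submitters' processing notes list hg38, STAR 2.6.0a, featureCounts, FastQC, R 3.6.0 and limma 3.40.2. How strand, multiply aligned reads and host reads were treated is not given in the sources used here, so genes that share exonic bases with a tested member, and a pseudogene copy of DGKZ, are named beside its values. The table's gene lengths, an annotation value deposited by the authors, were those of the merged exons of GENCODE release 29 for every member, and coordinates come from that release.

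Counts were analysed in R 4.3.3. Genes passing filterByExpr in edgeR 4.0.16 were scaled by trimmed means of M values (TMM, factors 0.921 to 1.04) and compared by edgeR's quasi-likelihood F test without covariates, with Benjamini-Hochberg adjustment over 16519 genes and calls below 0.05. The edgeR procedure was also run on simulated counts of independent libraries, drawn from the kind of model it fits. Only genes averaging 1 CPM or more were changed there. That run cannot speak to libraries that share a title number, to outlying libraries or to changes in genes under that level. CPM are TMM-scaled and given as mean ± SD over 6 libraries. Log2 CPM used a prior count of 2. Replicates of a group were all distinct, the lowest chi-square per degree of freedom between 2 of them being 12.05. Alternatives used DESeq2 1.42.0, limma 3.58.1, other scalings and filters, the title number or letter, and libraries left out.

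The members and lists were chosen with earlier results of these data known. Named genes were RNF2, all members, up to 4 genes with the smallest unadjusted p in each of 6 pathway lists, and the 5 genes most like DGKK. Neighbours of DGKK, genes overlapping a member, a pseudogene and MGLL fall outside that rule. Marker lists covered Ewing sarcoma and 7 host cell classes; summed levels of the host classes other than leukocytes, fibroblasts and pericytes were 18.8 to 31.9 CPM in knock-down and 19.0 to 31.7 CPM in control tumours for endothelium, 8.34 to 26.8 and 13.5 to 41.6 CPM for skeletal muscle, 1.09 to 2.94 and 0.891 to 2.74 CPM for adipocytes, 44.7 to 60.8 and 34.4 to 63.9 CPM for keratinocytes, and 6.18 to 23.0 and 2.63 to 13.9 CPM for blood, with CD3E, LOR, PPBP and PF4 among the markers at 0 counts in every library. Intervals of log2 fold changes come from the edgeR fit and take in the spread between libraries. Limits for 0 counts cover counting error only.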

Additional observations from a re-analysis of the deposited data

Results flagged for a closer look

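In 6 of 80 groups of 6 tumours, from 40 genes, 1 tumour stood apart from the rest by Dixon's gap test, and chance gives about 1 in 20. DGKH reached 14.7 CPM in knock-down 4, where the next knock-down tumour had 9.05 CPM. DGKB was at 0.167 CPM in knock-down 5, which is 4 counts. PLD1 was at 9.89 CPM in knock-down 6, with the next at 7.49 CPM. PLCD4 was at 2.93 CPM in control 6, the lowest control tumour, with the next at 4.93 CPM. PI4K2B was at 37.2 CPM in control 6, with the next control at 19.6 CPM. PLPP1 was at 9.67 CPM in control 5, with the next control at 7.82 CPM.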

How the results depend on the processing

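No paired analysis was possible because no title number occurs in both groups. RNF2 kept its direction and its call under all 25 alternatives. The log2 fold change of DGKK, whose direction was fixed by its selection on this contrast, was −1.56 to −1.49 outside the leave-outs of single libraries. The count of called genes, 49, was 356 with DESeq2, 500 with voom quality weights, 91 with the title number as a random effect, 7 with counts summed by title number, 28 with the title letter as a covariate, 3 at an adjusted p below 0.01, 16 to 79 with single libraries left out, and 108 without control 6, knock-down 4 and knock-down 5, an alternative chosen after seeing the data. Among the kinases other than DGKK 1 was called with DESeq2, against 0. The count over all 10, which takes in DGKK and so supports nothing, was 2 with DESeq2 and 0 at an adjusted p below 0.01, against 1. List genes called were 0 with a CPM of at least 1 in 6 libraries, 3 with DESeq2, 0 with limma-voom, 5 with quality weights, 0 with summed counts, 0 with the letter, 0 at the stricter threshold, 0 to 1 with single libraries left out and 2 without those 3 libraries, against 1. The rank of DGKK in control tumours was 3 by CPM without length and 2 to 3 with single libraries left out, against rank 2. By Spearman's rho 0 of the 5 genes most like DGKK were shared, and the r of RNF2 and DGKK in knock-down tumours turned to −0.37 without 2 libraries. Signs turned for AGK with quality weights (−0.036) and the title letter (−0.064), and with single libraries left out for AGK (−0.041 to 0.076), DGKG (−0.053 to 0.21) and DGKH (−0.015 to 0.26). The causes were not tested. DGKB and DGKI were limited by depth, and fewer libraries lower the power of the leave-outs by construction.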

Other observations

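MGLL, a lipase that cleaves monoacylglycerol and was singled out after its value was seen, had the lowest log2 fold change of the list genes, −1.15 (SE 0.750, edgeR adjusted p = 0.544), at 0.771 ± 0.666 CPM in knock-down and 1.71 ± 2.47 CPM in control tumours (SD, n = 6 each).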
